A study of Mus musculus with 6 samples.

Results

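The genes described here are 9 regulators of DNA methylation: the methyltransferase genes Dnmt1, Dnmt3a and Dnmt3b, the maintenance cofactor gene Uhrf1, the dioxygenase genes Tet1, Tet2 and Tet3, and the imprint keepers Trim28 and Zfp57. They were taken by name from the gene column of the count files, which hold 24391 genes, and all 9 were found and passed the filter on low counts. RNA was sequenced from cultured cells of mouse melanomas raised in the ear skin of iBIP mice, with 3 libraries labelled KMT2D KO and 3 labelled KMT2D WT. KMT2D KO cells came from iBIP;KMT2DL/L mice, which carry floxed Kmt2d alleles, and KMT2D WT cells came from iBIP;KMT2D+/+ mice. Both groups share the iBIP background, a mix of FVB and B6: a Tyr-CreERT2 transgene (Cre driven in melanocytes by the Tyr promoter and activated by 4-OHT), Rosa26-rtta with a doxycycline-inducible TetO-BRAFV600E transgene, and the floxed PTENL/L and INK/ARFL/L alleles. Mice of both genotypes were kept on doxycycline and had 1 uM 4-OHT put on their ears to start the tumours. Kmt2d encodes a histone H3 lysine 4 methyltransferase, and the comparison is between the expression of these genes in cells of KMT2D KO and KMT2D WT genotype.

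After each round of DNA replication UHRF1 binds CpG sites that are methylated on the old strand alone and recruits DNMT1, which copies the mark to the new strand. DNMT3A and DNMT3B place methyl groups on unmethylated DNA, while the TET enzymes oxidise 5-methylcytosine, a step towards its loss by dilution or by base excision repair. At imprinted control regions the zinc finger protein ZFP57 binds the methylated allele and recruits TRIM28, a scaffold for histone methyltransferases and DNA methyltransferases. The files measure RNA of these genes and not DNA methylation itself.

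Whether libraries of one group are separate cultures or share a culture, a tumour or a mouse is not given in the labels, and a p-value here therefore reflects the spread among 3 libraries, which could be technical. The total count was 55594979 to 79718782 in the KMT2D KO libraries and 43168605 to 59360068 in the KMT2D WT libraries. Kmt2d itself stood at 73.0, 69.3 and 79.8 CPM (counts relative to library size) in KMT2D KO, against 79.7, 87.6 and 101 CPM in KMT2D WT. These ranges overlap, and the call of Kmt2d as lower (-0.27 on the log2 scale with an SE of 0.08, edgeR adjusted p = 0.00749) was lost without KMT2D KO replicate 2 (-0.21, edgeR adjusted p = 0.0578). The files hold gene totals, and the labels used here do not say which exons are floxed, so this value does not check the deletion. Tyr, Tyrp1 and Dct, whose enzymes make pigment and define melanocytes, averaged at most 0.0765 CPM in either group, and 6 of 8 melanocyte markers were under 1 CPM in both. The extraction label names cerebellar tissue, and 9 of 10 cerebellar neuron markers were under 1 CPM in both groups.

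The difference between the groups was not the same for all 9 genes. Both de novo methyltransferase genes and all 3 TET genes were higher in KMT2D KO cells, each with a log2 fold change above 1, between 2.19-fold for Dnmt3b and 3.31-fold for Tet3. The maintenance pair, Dnmt1 and Uhrf1, was lower by less than 1 on the log2 scale, and neither imprint keeper passed the test. In counts, 5 of 9 genes rose and 2 fell at an edgeR adjusted p under 0.05, with log2 fold changes taken as KMT2D KO minus KMT2D WT. The comparison as a whole was wide: of 14579 genes tested, 71.0% were called, 35.4% higher and 35.5% lower, so a call alone does not set these genes apart. A log2 fold change above 1 was less common: 5 of these 9 genes were called higher with one, against 13.9% of all tested genes. The groups did not overlap in CPM for 8 of the 9 genes, and for 74.3% of all tested genes. The median log2 fold change was 1.13 over the 9 genes and 0.00 over all tested genes. The 9 genes were chosen with earlier results of these data known, so these shares and medians describe them and test nothing. In bulk RNA, fewer cells of a type and less RNA per cell cannot be told apart.

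**Figure D1:**
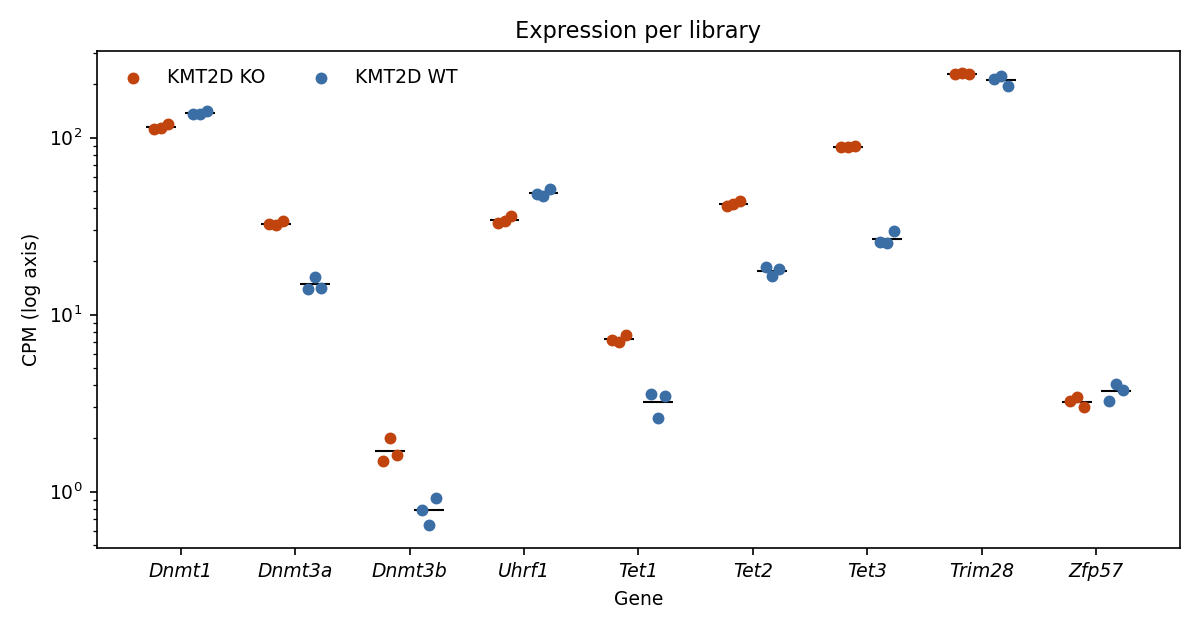
Each point is 1 library, given as CPM on a log axis for each of the 9 genes, with KMT2D KO left of KMT2D WT and a bar at the group mean. The 3 KMT2D KO libraries sit above all KMT2D WT libraries for Dnmt3a, Dnmt3b, Tet1, Tet2, Tet3 and Trim28, below them for Dnmt1 and Uhrf1, and among them for Zfp57.

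Tet3 (mm9 chromosome 6, 83312368 to 83391672, minus strand) encodes the TET enzyme best known from the zygote, where it oxidises the paternal genome. It showed the largest change of the 9 genes. Its level was 88.0, 88.5 and 90.1 CPM in KMT2D KO, against 25.8, 25.3 and 29.5 CPM in KMT2D WT. The 3 KMT2D KO libraries lay close together and far above every KMT2D WT library. The log2 fold change was 1.73 with an SE of 0.07 (edgeR adjusted p = 8.26e-12), which stood at percentile 92.5 of all tested genes. Genes of chromosome 6 as a whole were shifted the same way, with a median log2 fold change of 0.42, and Tet3 stood 1.31 above that median.

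Tet2 (chromosome 3, 133126641 to 133207354, minus strand), the family member often mutated in blood cancers, followed with 40.8, 42.2 and 43.8 CPM in KMT2D KO, against 18.5, 16.6 and 18.1 CPM in KMT2D WT. Its log2 fold change was 1.25 with an SE of 0.07 (edgeR adjusted p = 9.95e-10), on a chromosome whose median was -0.06. Tet1 (chromosome 10, 62267318 to 62342762, minus strand), which is prominent in embryonic stem cells and germ cells, was far less abundant. It was counted at 7.23, 7.0 and 7.63 CPM in KMT2D KO, against 3.56, 2.62 and 3.47 CPM in KMT2D WT. The lowest KMT2D KO library was above the highest KMT2D WT library, and the log2 fold change was 1.19 with an SE of 0.15 (edgeR adjusted p = 5.2e-06). The median of chromosome 10 was -0.11, so Tet1 and Tet2 both rose on chromosomes whose median was slightly below 0.

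The promoter of Tet2 is shown as the window of the 9 genes with the most CpG sites, the substrate of these enzymes, beside a Zfp57 window with far fewer, a number at the median of all windows. The sequences are those of RefSeq on GRCm38.p6, a different build from that of the counts. All 9 genes matched the table by symbol, with 16 windows, and these run over 250 bases up to the start, with CpG in capitals. The Tet2 window lies at chr3:133544391-133544640 on the minus strand, and the Zfp57 window at chr17:37000913-37001162 on the plus strand.
Tet2: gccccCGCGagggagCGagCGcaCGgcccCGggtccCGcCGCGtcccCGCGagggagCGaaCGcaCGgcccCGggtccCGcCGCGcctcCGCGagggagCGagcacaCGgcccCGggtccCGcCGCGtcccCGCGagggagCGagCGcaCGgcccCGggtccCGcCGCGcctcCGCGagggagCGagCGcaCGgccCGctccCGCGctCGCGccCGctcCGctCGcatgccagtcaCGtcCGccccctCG
Zfp57: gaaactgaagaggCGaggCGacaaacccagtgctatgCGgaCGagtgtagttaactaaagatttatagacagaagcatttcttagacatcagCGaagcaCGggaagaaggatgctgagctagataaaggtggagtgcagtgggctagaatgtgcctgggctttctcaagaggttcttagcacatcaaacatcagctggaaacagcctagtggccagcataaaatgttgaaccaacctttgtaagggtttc
The Tet2 window holds 51 CpG sites, with an observed over expected ratio of 1.19, and the Zfp57 window holds 6, with a ratio of 0.47. Over 32851 windows of the same length in the table, the median was 6 CpG sites and a ratio of 0.37, and the 90th percentile of the ratio was 0.92. The remaining TET windows were intermediate, with 15 CpG sites for Tet1 and 17 for Tet3, ratios of 0.63 and 0.56. Of the 250 bases, 100 in the Tet1 window and 174 in the Tet3 window lie within annotated exons. Dnmt3b had 21 CpG sites in its window (0.61), and the CpG-richest of the Dnmt3a windows had 40 (1.09). Genes that did not rise had CpG-rich windows too. The CpG-richest windows of Dnmt1 and Uhrf1, which fell, had 26 (0.89) and 30 (1.0). Trim28, which was not called, had 17 (0.73). A link between CpG content and direction was not tested.

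Dnmt3a (chromosome 12, 3806980 to 3914443, plus strand) encodes the de novo methyltransferase that predominates in differentiated cells. It was counted at 32.4, 32.0 and 33.7 CPM in KMT2D KO, against 14, 16.3 and 14.2 CPM in KMT2D WT. Every KMT2D KO library lay well above every KMT2D WT library, and the log2 fold change was 1.14 with an SE of 0.08 (edgeR adjusted p = 1.19e-08). The median of chromosome 12 was -0.14, which is the opposite sign. An annotated pseudogene, Dnmt3a-ps1, could take or share reads of this gene.

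Dnmt3b (chromosome 2, 153475185 to 153513466, plus strand), the de novo enzyme of early embryos and stem cells, was the least abundant of the methyltransferases. It was counted at 1.49, 2.02 and 1.62 CPM in KMT2D KO, against 0.787, 0.646 and 0.917 CPM in KMT2D WT. These levels rest on 114, 124 and 86 fragments in KMT2D KO and on 46, 40 and 41 in KMT2D WT. The log2 fold change of 1.13 carried the largest standard error of the 9 genes, 0.30, and an edgeR adjusted p of 0.00349. Chromosome 2 had a median of 0.27, and Dnmt3b stood 0.85 above it. The Dnmt3a to Dnmt3b ratio in CPM per kilobase of exon was 8.48 ± 1.40 in KMT2D KO and 8.49 ± 2.24 in KMT2D WT (SD, n = 3 each), a difference far within the spread between libraries.

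Uhrf1 (chromosome 17, 56442760 to 56462909, plus strand) was counted at 32.8, 33.8 and 36.0 CPM in KMT2D KO, against 48.2, 46.9 and 51.0 CPM in KMT2D WT. The groups were well apart. The log2 fold change was -0.51 with an SE of 0.07 (edgeR adjusted p = 6.93e-06), while the median of chromosome 17 was 0.05.

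Dnmt1 (chromosome 9, 20711650 to 20764332, minus strand), whose product works with UHRF1, was counted at 112, 113 and 119 CPM in KMT2D KO, against 137, 135 and 141 CPM in KMT2D WT. Its spread within each group was small, and the groups did not overlap. The log2 fold change was -0.26 with an SE of 0.05 (edgeR adjusted p = 0.000386). The chromosome carried as large a shift: 820 tested genes of chromosome 9 had a median of -0.30, and Dnmt1 stood 0.04 above that median. What that chromosome-wide shift contributes to the value of Dnmt1 was not tested. The Uhrf1 to Dnmt1 ratio in CPM per kilobase was 0.514 ± 0.00994 in KMT2D KO and 0.612 ± 0.0138 in KMT2D WT (SD, n = 3 each), so Uhrf1 was lower in KMT2D KO relative to Dnmt1 as well.

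Dnmt1 and Uhrf1, the pair that was lower in KMT2D KO, are known targets of E2F factors, which drive S-phase genes, and an E2F motif was searched in the windows of all 9 genes. The letters were TTTCGCGC or TTTGGCGC on either strand, and they occur in 0.7% of all windows in the table. Among the 16 windows of the 9 genes they were found in 1 of Dnmt1 and 1 of Uhrf1. Other forms of an E2F site were not searched, so the remaining windows are not shown to lack one. These hold 26 and 30 CpG sites, against a median of 6 over all windows. The letters contain CpG, so 0.7% is not the share among windows as rich in CpG. The motif was chosen with the fall of this pair known, and a part of E2F factors in it was not tested. The matches, in capitals, are shown with 8 bases on each side, from chr9:20952827-20952850 on the minus strand and chr17:56304120-56304143 on the plus strand of GRCm38.p6.
Dnmt1: ttccgcgcGCGCGAAAaagccggg
Uhrf1: gagtcgggTTTCGCGCgcccaggc
The match starts 219 bases before the annotated start of its window in Dnmt1 and 185 bases before it in Uhrf1, and overlaps none of the other motifs searched. Those were the CCAAT box (CCAAT, in 33.8% of all windows), the GC box (GGGCGG, 32.7%) and the TATA box (TATAAA, 12.4%), each on either strand. Both genes also have a window further upstream, so each match lies downstream of another annotated start. In Dnmt1 all 8 bases of the match lie within an exon annotated by GENCODE, so they are not only upstream sequence. In Uhrf1 the window holds no annotated exon. The same Uhrf1 window holds CCAAT 150 and 107 bases before the start, and 30 CpG sites in all. A match describes these letters and says nothing about binding in these cells.

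Trim28 (chromosome 7, 13609501 to 13616381, plus strand) was the most abundant of the 9 genes, with 229, 231 and 228 CPM in KMT2D KO, against 214, 223 and 196 CPM in KMT2D WT. Each KMT2D KO library exceeded each KMT2D WT library, but KMT2D WT varied more. The log2 fold change of 0.12 (SE 0.06) did not pass the test, with an edgeR adjusted p of 0.0668. It did pass without KMT2D WT replicate 2 (0.16, adjusted p = 0.0239) and with all genes tested (0.15, adjusted p = 0.022), while library sizes without TMM scaling put it at 0.01. Zfp57 (chromosome 17, 37138108 to 37147674, plus strand), a gene of the early embryo, was low, with 3.27, 3.40 and 3.01 CPM in KMT2D KO, against 3.25, 4.07 and 3.73 CPM in KMT2D WT. The groups overlapped, and its log2 fold change was -0.19 with an SE of 0.17 (edgeR adjusted p = 0.319).

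**Figure D2:**
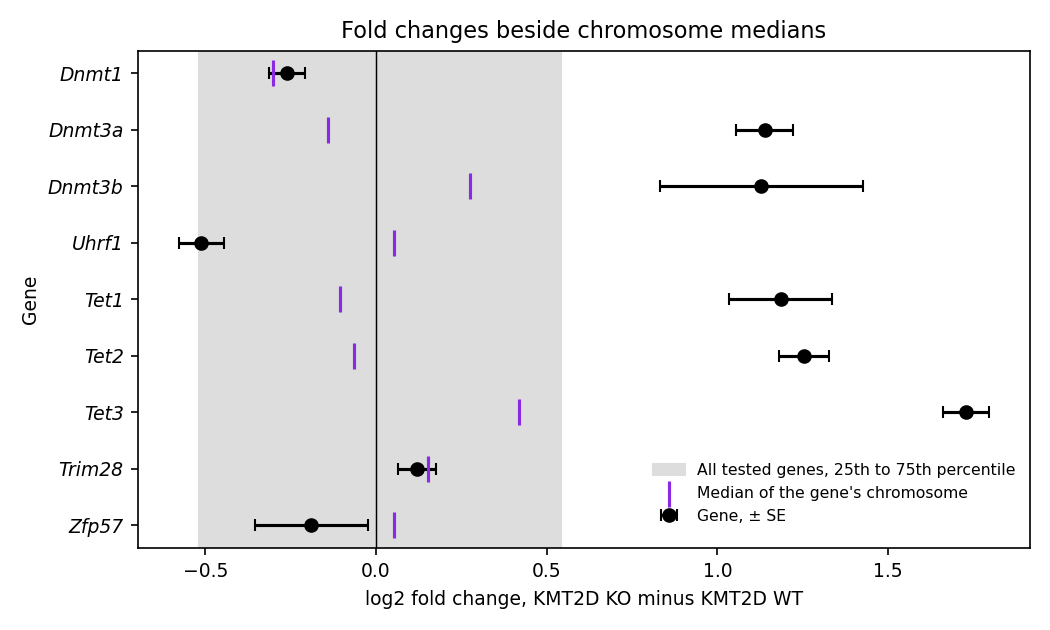
Points give the log2 fold change of each gene, KMT2D KO minus KMT2D WT, with its standard error, purple ticks the median of all tested genes on the same chromosome, and the grey band the 25th to 75th percentile of all tested genes (-0.52 to 0.54). The 5 genes that rose lie right of the band and of their chromosome ticks, while Dnmt1 and Trim28 lie at their ticks.

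Per kilobase of exon, the scale on which genes can be compared, the order of the 9 levels was the same in both groups. Trim28 led with 70.7 CPM per kilobase in KMT2D KO and 65.0 in KMT2D WT. Dnmt1 came next with 18.2 in KMT2D KO and 21.8 in KMT2D WT, then Uhrf1 with 9.36 in KMT2D KO and 13.3 in KMT2D WT, then Tet3 with 8.15 in KMT2D KO and 2.46 in KMT2D WT. Tet2, Dnmt3a, Zfp57, Tet1 and Dnmt3b followed, down to 0.395 CPM per kilobase for Dnmt3b in KMT2D KO and 0.181 in KMT2D WT. Neighbours in this order did not overlap between libraries, except Tet1 and Dnmt3b in KMT2D WT. The spacing changed most between Uhrf1 and Tet3, since Uhrf1 was 1.15 times the level of Tet3 in KMT2D KO but 5.42 times in KMT2D WT.

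The make-up of the families also differed. Dnmt1 made up 83.2 ± 0.163% of the summed DNMT level per kilobase in KMT2D KO and 92.9 ± 0.513% in KMT2D WT (SD, n = 3 each). Dnmt3a made up 15.0 ± 0.213% in KMT2D KO and 6.36 ± 0.625% in KMT2D WT, so it took most of what Dnmt1 left. The share of Dnmt3b was 1.80 ± 0.302% in KMT2D KO and 0.770 ± 0.121% in KMT2D WT, a difference of 1.03 percentage points (exact two-sided permutation p = 0.1, the smallest that 3 against 3 libraries allow). Within the TET family all 3 genes rose, but not in proportion. Tet3 held 61.4 ± 0.543% of the summed TET level in KMT2D KO and 53.2 ± 2.07% in KMT2D WT, and Tet2 held 34.7 ± 0.525% in KMT2D KO and 41.8 ± 1.79% in KMT2D WT. The share of Tet1 was 3.90 ± 0.119% in KMT2D KO and 4.92 ± 0.579% in KMT2D WT, a difference of -1.02 percentage points (exact two-sided permutation p = 0.1, again the smallest possible). No library of one group fell within the range of the other for any of these shares.

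Summed per kilobase, the DNMT genes came to 21.9 ± 0.628 CPM in KMT2D KO and 23.5 ± 0.410 CPM in KMT2D WT, and the TET genes to 13.3 ± 0.281 CPM in KMT2D KO and 4.62 ± 0.301 CPM in KMT2D WT. Dnmt1 made up most of the DNMT sum, and Tet3 and Tet2 nearly all of the TET sum. The TET to DNMT ratio was 0.609, 0.609 and 0.601 in KMT2D KO, against 0.199, 0.186 and 0.205 in KMT2D WT. These sums and ratios were chosen after the values of the single genes had been seen, and are given as a description with no test.

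**Figure D3:**
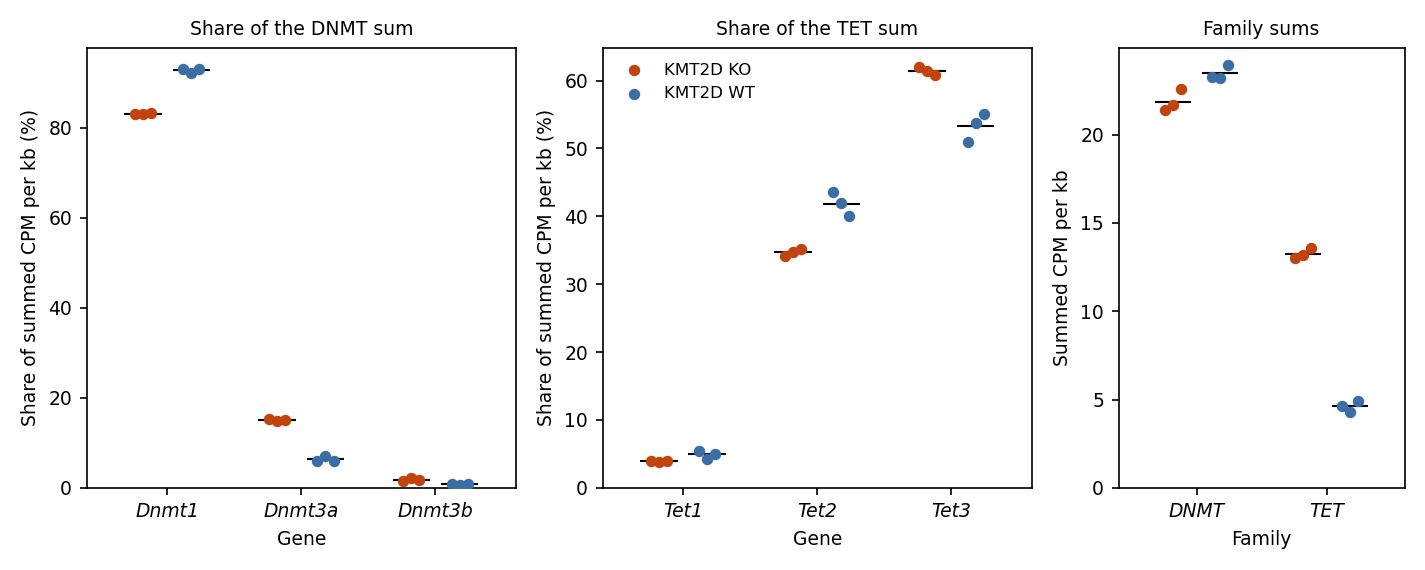
Points are libraries and bars group means, with KMT2D KO left of KMT2D WT: the share of each gene in the summed DNMT level and in the summed TET level (percent of CPM per kilobase), and the sums themselves (CPM per kilobase). Dnmt3a takes 15.0% of the DNMT sum in KMT2D KO against 6.36% in KMT2D WT, and the TET sum stands at 13.3 against 4.62.

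Genes next to the 9 on the chromosome did not share one direction. Of 36 neighbours tested, 2 on each side, 11 rose, 12 fell and 13 were not called. Kdm4b, a histone H3 lysine 9 demethylase gene that starts 2564 bases beyond Uhrf1, rose by 1.73 while Uhrf1 fell. Dtnb and Efr3b flank Dnmt3a, with log2 fold changes of -1.39 and 1.43, both called. B230319C09Rik, 77 bases from Tet3, rose by 1.01 with it, and Dguok on the same side rose by 1.07, while Mob1a on the other side rose by 0.19. None of the 9 genes shares exonic bases with another gene in the files' annotation. These neighbours were picked by position alone, and the ones named here after their values had been seen.

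Of 12 partners of the DNA methyltransferases, 3 rose and 5 fell, and 4 did not pass the test. The median log2 fold change was -0.10. The largest change was in Hells, the remodeller that opens heterochromatin to DNMT enzymes, at 24.8 ± 1.42 CPM in KMT2D KO and 56.2 ± 7.14 CPM in KMT2D WT (SD, n = 3 each; log2 fold change -1.18, edgeR adjusted p = 1.58e-08). Nsd1, which writes the histone H3 lysine 36 mark that recruits DNMT3A, was also lower, with 136 CPM in KMT2D KO and 235 CPM in KMT2D WT (-0.79). Ehmt1 and Ehmt2, the histone H3 lysine 9 methyltransferase pair, were higher, with log2 fold changes of 0.70 and 0.53. Dnmt3l, the catalytically inactive partner of the de novo enzymes, was at 5.49 CPM in KMT2D KO and 6.09 CPM in KMT2D WT (-0.15, edgeR adjusted p = 0.329), with a pseudogene, Dnmt3l-ps1, annotated. Uhrf2, the paralog of Uhrf1, was at 106 CPM in KMT2D KO and 110 CPM in KMT2D WT (-0.05, edgeR adjusted p = 0.53), and passed with library sizes alone (-0.16, edgeR adjusted p = 0.0449).

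Among regulators of the TET enzymes and genes that repair their products, 17 of 18 were tested. The call was higher for 7 and lower for 5, with a median of -0.08. Gadd45b, a stress gene linked to active demethylation, averaged 29.3 CPM in KMT2D KO and 13.5 CPM in KMT2D WT (1.12). Mbd4, a glycosylase for deaminated methylcytosine, averaged 9.99 CPM in KMT2D KO and 4.66 CPM in KMT2D WT (1.09). Both rose by over 1 on the log2 scale, and they had the largest rises of this list among genes that averaged 1 CPM or above. Gadd45a went the other way, with 32.3 CPM in KMT2D KO and 54.1 CPM in KMT2D WT (-0.74). Ung, the uracil glycosylase, fell by 1.12 on the log2 scale, with 1.27 CPM in KMT2D KO and 2.75 CPM in KMT2D WT. Tdg, the glycosylase that removes oxidised methylcytosine, had 7 fragments over the 3 KMT2D KO libraries and 28 over the 3 KMT2D WT libraries, too few to be tested. A near-identical copy, Tdg-ps, is annotated, and fragments that map to several places were left out, so the level of Tdg is uncertain.

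Readers of methylated or unmethylated CpG went both ways, with 4 of 11 higher, 5 lower and 2 without a call (median -0.10). Kdm2a and Fbxl19, which bind unmethylated CpG through a CXXC domain, rose by 0.56 and 0.64. Mbd1 and Mbd3 of the methyl-CpG-binding domain family fell by 0.66 and 0.76.

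The TRIM28 co-repressor partners were equally mixed, with 7 of 22 higher, 9 lower and 6 not called (median 0.05). Setdb1, the histone H3 lysine 9 methyltransferase that TRIM28 recruits, averaged 57.9 CPM in KMT2D KO and 42.1 CPM in KMT2D WT (0.46, edgeR adjusted p = 9.72e-06). Daxx, a chaperone of histone H3.3, rose by 1.04, and so did Cbx3, which encodes a heterochromatin protein, by 1.07, with 8 annotated pseudogenes that make its count uncertain. The KRAB zinc finger genes Zfp932 and Zfp708, which guide TRIM28 to retroelements, fell by 1.06 and 0.90. Of 15 other imprint protectors and maternal factors, 9 were tested, 4 of them higher and 3 lower (median 0.03). Without KMT2D KO replicate 1, KMT2D KO replicate 2 or KMT2D WT replicate 2, in turn, 2, 1 and 1 of these were called higher. Zfp445, the KRAB zinc finger gene that acts with Zfp57, was at 60.5 CPM in KMT2D KO and 54.0 CPM in KMT2D WT, a log2 fold change of 0.17 (edgeR adjusted p = 0.0232). That call was lost without KMT2D KO replicate 1, KMT2D KO replicate 2 or KMT2D WT replicate 2, in turn (0.15, 0.17 and 0.14). Zfp568, which represses an Igf2 transcript in mouse, rose by 1.17, and Nlrp2, a maternal factor, fell by 4.45, at 0.0519 CPM in KMT2D KO and 1.19 CPM in KMT2D WT. Arid4a fell by 0.40, Trdmt1, a tRNA methyltransferase gene, rose by 0.42 with a call that was lost without KMT2D KO replicate 2 or KMT2D WT replicate 2 (0.39 and 0.35), and Dppa3, with 3 fragments in KMT2D KO and 21 in KMT2D WT, was not tested.

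**Figure D4:**
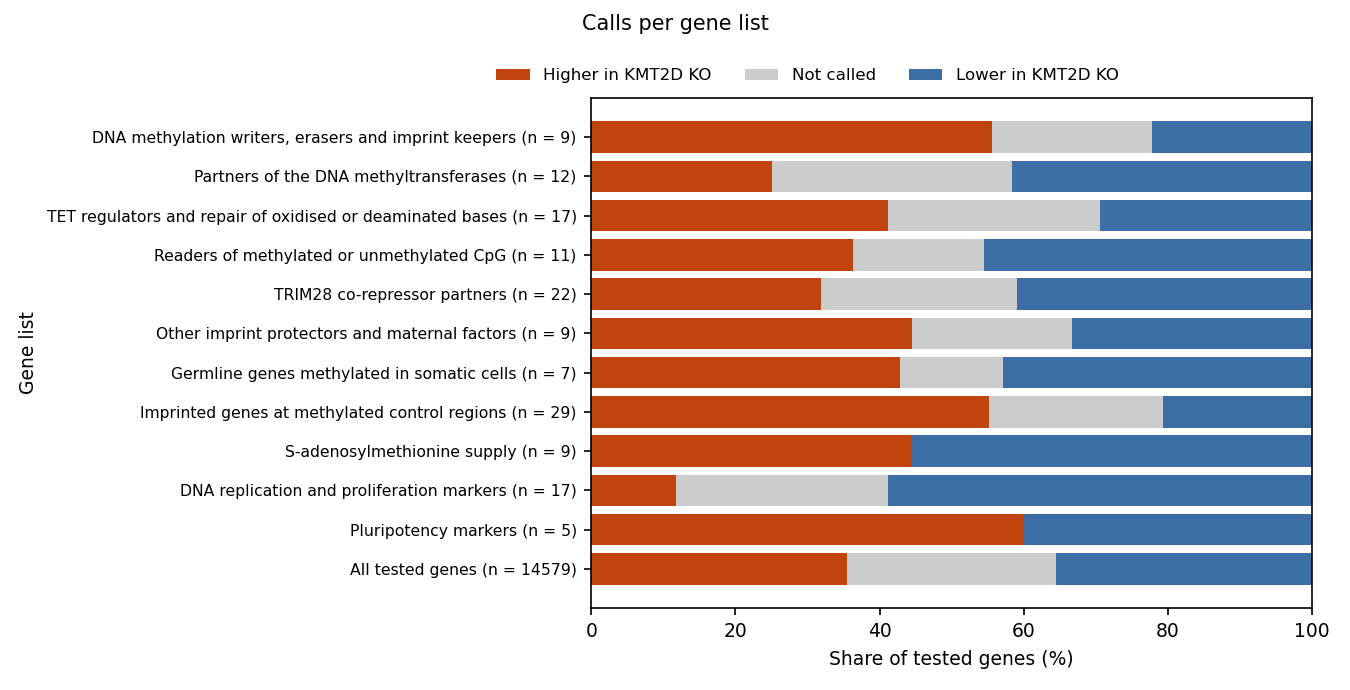
Bars give the share of tested genes in each list (percent) that were called higher in KMT2D KO, not called, or called lower, with all 14579 tested genes in the last bar. Of the 9 regulators 5 are higher and 2 lower, and among DNA replication and proliferation markers 2 of 17 are higher and 10 lower.

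Many germline genes are silenced by DNA methylation in somatic tissue, and imprinted genes depend on it for allelic expression. Of 22 germline genes that are methylated in somatic cells, 19 were under 1 CPM in both groups, and the whole list summed to 7.54 to 8.41 CPM in KMT2D KO and 6.41 to 8.09 CPM in KMT2D WT. Only 7 of the 22 were tested, of which 3 rose and 3 fell, with 1 higher without KMT2D KO replicate 1 or KMT2D KO replicate 3. Sycp3, of the synaptonemal complex, was at 2.45 CPM in KMT2D KO and 1.49 CPM in KMT2D WT (0.74, edgeR adjusted p = 0.0465), a call lost in 7 of 13 alternative fits, among them the removal of each library other than KMT2D WT replicate 3, with values of 0.43 to 0.77. Sycp1, of the same complex, was at 0.539 CPM in KMT2D KO and 1.13 CPM in KMT2D WT (-1.07, edgeR adjusted p = 0.0257), a call lost without KMT2D KO replicate 2 or 3 or KMT2D WT replicate 1 or 2 (-0.90, -0.99, -0.82 and -1.02). Of 35 imprinted genes at methylated control regions 29 were tested, 16 of them higher and 6 lower (median 0.51). H19, counted without strand, stood at 138 CPM in KMT2D KO and 0.312 CPM in KMT2D WT, and Ndn at 15.9 CPM in KMT2D KO and 0.0752 CPM in KMT2D WT, log2 fold changes of 8.79 and 7.63. Igf2r and Slc22a18 fell by 0.87 and 0.95. Gene totals do not separate the parental alleles.

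The supply of S-adenosylmethionine, the methyl donor, was also split, with 4 of 9 tested genes higher and 5 lower (median -0.15). Ahcy, which clears the inhibitory by-product S-adenosylhomocysteine, averaged 36.7 CPM in KMT2D KO and 16.5 CPM in KMT2D WT (1.16), and Mat2b, a regulatory subunit of the synthetase, rose by 0.51. Mat2a, its catalytic subunit, averaged 98.5 CPM in KMT2D KO and 176 CPM in KMT2D WT (-0.84), and Mtrr, which reactivates methionine synthase, fell by 1.34.

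Several marker lists moved with the group, and their part in the changes above was not tested. Dnmt1 and Uhrf1 are S-phase genes, and of 17 DNA replication and proliferation markers 10 fell and 2 rose (median -0.47), with summed levels of 685 to 699 CPM in KMT2D KO and 762 to 783 CPM in KMT2D WT. The replication markers Mcm4 and Gmnn fell by 1.37 and 1.10, while Top2a and Mki67, markers of dividing cells, rose by 0.71 and 0.43. The mitotic genes Ccnb1 and Cdk1 and the cyclin gene Ccna2, named after their values were seen, did not pass the test (-0.07, 0.07 and -0.10). Dnmt3b and Tet1 are stem cell genes, and of 13 pluripotency markers 11 were under 1 CPM in both groups, Utf1 and Fgf4 at 0. Of the 5 tested 3 rose and 2 fell. Among those that rose were Sox2, with 10.9 CPM in KMT2D KO and 0.101 CPM in KMT2D WT, and Klf4, by 1.08. Esrrb and Dppa2, both under 1 CPM in both groups, fell by 2.80 and 3.77. Of 8 melanocyte markers 4 were tested, 2 of them called, both higher, and the list summed to 50.3 to 59.0 CPM in KMT2D KO and 15.9 to 17.3 CPM in KMT2D WT, nearly all of it Mitf (1.79). Of 8 fibroblast markers 6 rose, Col3a1 by 3.20 and Col1a2 by 1.74, while Dpt fell by 5.69 and Lum fell by 1.29, for a sum of 21240 to 22240 CPM in KMT2D KO and 5530 to 5730 CPM in KMT2D WT. Of 6 immune cell markers tested 5 fell, of which Cd68 fell by 2.02 and Cd14 fell by 1.47, and the list of 8 summed to 8.82 to 10.3 CPM in KMT2D KO and 27.4 to 32.0 CPM in KMT2D WT. Of 7 keratinocyte markers tested 2 rose, Trp63 by 3.77 and Perp by 2.90, and 1 fell (2 without KMT2D WT replicate 1). The list summed to 69.4 to 76.3 CPM in KMT2D KO and 15.2 to 16.6 CPM in KMT2D WT, of which Perp averaged 57.6 and 7.69 CPM. The keratin genes Krt5, Krt14, Krt1 and Krt10 were not called and averaged at most 3.42 CPM in either group. Of 3 cerebellar neuron markers tested Cbln3 rose by 3.05 and 1 fell (2 without KMT2D KO replicate 1, KMT2D KO replicate 2 or KMT2D WT replicate 2), and the list of 10 summed to 2.41 to 3.01 CPM in KMT2D KO and 1.30 to 1.5 CPM in KMT2D WT.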

How the data were processed

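The deposited values are whole-number counts of fragments per gene, made by the authors with featureCounts 1.5.2 (exons grouped by gene, mm9 annotation), per the file headers, with no strand option and none for fragments mapping to several places. STAR, HTSeq and mm9 are named, without roles, in the submitters' processing notes. edgeR 4.0.16 fitted the 14579 genes that pass filterByExpr (quasi-likelihood F test, TMM, group only, Benjamini-Hochberg over all tested genes, called under 0.05) in R 4.3.3, checked on simulated data. CPM used TMM-scaled library sizes, and CPM per kilobase divided them by the exonic length in the files. The SE is the log2 fold change over the root of F. Members and gene lists were chosen with earlier results of these data known. Named genes are the 9, Kmt2d, 7 fixed partners (Dnmt3l, Uhrf2, Hells, Setdb1, Tdg, Zfp445 and Dppa3) and, per list, up to 2 called genes each way with the largest change, if the group with more RNA averaged 1 CPM or above. One gene that this rule names is not reported here. Alternatives were RLE scaling, library size alone, DESeq2 1.42.0, limma 3.58.1 voom, other filters, a replicate block and leaving out each library.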

Additional observations from a re-analysis of the deposited data

How the results depend on the processing

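The 5 genes that rose and the 2 that fell kept direction and call in all 13 alternative fits: RLE scaling, library size alone, DESeq2, limma voom, no filter, a mean of at least 1 CPM, a replicate block and the removal of each library. Dnmt3b ranged from 1.00 to 1.25 (adjusted p up to 0.0316) and Tet3 from 1.62 to 1.80. Trim28 was called with no filter, under the replicate block (0.12, adjusted p = 0.0424) and without KMT2D WT replicate 2, which makes 6 genes higher there. The block changed no other call of a named gene. Zfp57 was called in none (-0.30 to -0.11). Relative to the chromosome median, Dnmt1 stood at 0.040, against -0.26 before. Uhrf2 ranged from -0.090 to 0.034 without single libraries, the last without KMT2D WT replicate 1, and the cause was not tested. Undivided by length, the difference in the Dnmt3b share was 0.635 points, since the genes differ in length. Without single libraries it was 0.860 to 1.13, and that of Tet1 was -1.33 to -0.753. Over all genes, the removal of single libraries left 4779 to 5370 higher and 4763 to 5428 lower, and the replicate block 5225 and 5143. Same-numbered libraries correlated at 0.00846 to 0.0149 in their deviations, so the numbers were not taken to pair them, although each library correlated best with its own number. Library size alone put the median of all genes at -0.11 and ended the calls of Zfp445, Trdmt1 and Sycp3, while Uhrf2 became a call as lower. Of 51 other named genes tested, 44 kept a call throughout. Germline calls fell to 1 higher and 0 lower at a mean of at least 1 CPM, and depth limits the precision of Dnmt3b, at 40 to 124 fragments a library.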
